A study of Mus musculus with 12 samples.

Results

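The most gene-rich megabases of the mouse autosomes were examined by OK-seq, which sequences Okazaki fragments and shows which way replication forks move. Each autosome was divided into fixed windows of 1 Mb, the first from base 1 to base 1000000, and a window was kept if it held at least 25 transcription start sites (TSSs) of protein-coding genes (GENCODE M21, 1 TSS per gene, symbols starting with Olfr or Vmn not counted). This gave 137 gene-dense windows of 2473. They held 4954 of 19350 TSSs, or 25.6%, in 5.70% of the sequence compared. Another 2266 windows with at least 500 kb of known sequence were used for comparison, and 70 windows with less were left out.

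The study compared naive mouse embryonic stem cells (ESCs), grown with LIF and the 2 inhibitors termed 2i, with epiblast-like cells (EpiLCs), made by withdrawing them, in 3 genotypes. The control was a KMT2C KO line that also carried a conditional KMT2D allele and CreER, and the double KO (KMT2C/D dKO, dKO from here on) was this line after 4-hydroxytamoxifen had removed KMT2D, so that KMT2C was altered in all 3 genotypes. The double catalytic dead line (KMT2C/D dCD, dCD from here on) came from R1 cells of a single mouse strain, whereas the control line is of mixed strains, so this mutant was not matched to the control in origin. Each condition had 2 replicates, 12 samples in all, which are summed in 1 track per condition, so that 6 libraries were compared without an error between replicates.

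Gene-dense windows had a median of 34 TSSs, from 25 to 67, and a median GC content of 47.1% (range 39.4 to 53.7), against 41.5% (35.7 to 52.4) in the other windows. They lay on all 19 autosomes, with 16 each on chromosomes 7 and 11, 11 on chromosome 2, 10 on chromosome 8 and 2 each on chromosomes 12, 16 and 18. Many adjoined one another, since the 137 windows formed 88 runs, the longest of 7 windows. Their genes were short, with a median length of 9.71 kb against 26.2 kb elsewhere. A gene family gave at least 40% of the symbols in 11 windows. These were windows of keratins (Krt, chromosome 15), histones (Hist, 2 windows on chromosome 13), zinc finger genes (Zfp, chromosome 13), alpha-defensins (Defa, chromosome 8), late cornified envelope genes (Lce, chromosome 3), kallikreins (Klk, chromosome 7), beta-protocadherins (Pcdhb, chromosome 18), H2 histocompatibility genes (chromosome 17), Ms4a genes (chromosome 19) and Fbxw genes (chromosome 9).

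Okazaki fragments are made on the lagging strand. Forks that move rightward give Crick reads and forks that move leftward give Watson reads, and a place where forks start has Watson reads on its left and Crick reads on its right. KMT2C and KMT2D place H3K4me1 at enhancers. Gene-rich chromosome regions are known to be rich in GC, to replicate early in S phase and to hold many active promoters, and replication often starts near such promoters.

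The promoters below belong to TSSs at the ends of the range of strand bias described later, Med1 and Dhx30 from the top and Myg1 from the bottom. They are shown so that the composition of such starts can be seen. Sequences are from RefSeq (GRCm38.p6, the build of the tracks), 250 bases before to 50 bases after the RefSeq start, 5′ to 3′ on the strand of the gene, with CpG dinucleotides in capitals. The RefSeq start lay 387 bases from the GENCODE TSS for Med1, 214 for Dhx30 and 0 for Myg1. Med1 encodes a subunit of the Mediator complex, Dhx30 an RNA helicase and Myg1 an exonuclease of nuclei and mitochondria.
Med1 (chr11:98192857-98193156, minus strand): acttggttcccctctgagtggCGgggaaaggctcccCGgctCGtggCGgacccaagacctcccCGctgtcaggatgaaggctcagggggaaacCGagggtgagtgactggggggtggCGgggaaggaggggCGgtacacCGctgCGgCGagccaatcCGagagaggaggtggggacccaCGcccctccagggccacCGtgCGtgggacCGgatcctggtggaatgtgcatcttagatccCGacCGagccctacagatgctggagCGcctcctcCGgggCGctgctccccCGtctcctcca
Dhx30 (chr9:110117567-110117866, minus strand): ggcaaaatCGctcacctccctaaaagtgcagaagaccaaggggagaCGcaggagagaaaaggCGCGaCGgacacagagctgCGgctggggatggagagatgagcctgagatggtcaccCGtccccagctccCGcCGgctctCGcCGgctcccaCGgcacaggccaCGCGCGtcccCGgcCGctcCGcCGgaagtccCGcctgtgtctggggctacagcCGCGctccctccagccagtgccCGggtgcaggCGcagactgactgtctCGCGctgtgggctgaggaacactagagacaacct
Myg1 (chr15:102331459-102331758, plus strand): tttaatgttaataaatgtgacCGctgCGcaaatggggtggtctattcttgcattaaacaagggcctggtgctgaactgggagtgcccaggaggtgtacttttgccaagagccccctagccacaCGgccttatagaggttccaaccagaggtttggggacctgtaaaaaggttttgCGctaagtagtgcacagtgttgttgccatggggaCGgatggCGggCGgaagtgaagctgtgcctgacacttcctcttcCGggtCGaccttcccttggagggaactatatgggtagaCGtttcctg
The Med1 promoter held 22 CpGs and the Dhx30 promoter 26, against 10 for Myg1. Over all RefSeq promoters matched by symbol, the median was 15 CpGs for 3733 genes of gene-dense windows and 16 for 10701 genes elsewhere. Smarcc1, Nol6 and Slc6a21 were chosen by the same rule. Within 500 bases of the GENCODE TSS, Med1, Dhx30, Smarcc1 and Nol6 from the top had 61, 62, 74 and 33 CpGs. Slc6a21 and Myg1 from the bottom had 48 and 47, more than Nol6. RefSeq starts for Smarcc1 and Slc6a21 lay 14316 and 5360 bases from the GENCODE TSS, and these sequences are not shown.

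The naive libraries held 3652593 to 4405360 reads and the EpiLC libraries 11398128 to 13591646 on the autosomes and chromosome X. A gene-dense window had a median of 1989 to 2348 reads in the former and 5894 to 6784 in the latter, and a 50 kb window inside it 98 to 119 and 299 to 346. Intervals below are 95% intervals from counting error only. PCR copies cannot be told from separate molecules without molecular identifiers, and each condition is 1 library, so they compare libraries and not conditions. A difference is called where its interval leaves out 0, or 1 for a ratio. Whole chromosomes were unequal between lines. Outside gene-dense windows, read density of dCD over control was 1.11 in naive ESCs and 1.06 in EpiLCs on chromosome 6 and 0.919 and 0.943 on chromosome 3, where dKO over control was 0.950 and 0.956.

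Gene-dense windows gave more reads per kilobase than other windows in all 6 libraries. The ratio was 1.287 (1.282 to 1.292) in the naive control, 1.292 (1.287 to 1.297) in naive dKO and 1.309 (1.304 to 1.314) in naive dCD. In EpiLCs it was 1.239 (1.236 to 1.241), 1.264 (1.261 to 1.267) and 1.208 (1.206 to 1.211). All naive ratios thus lay above all EpiLC ratios. Over the 6 libraries the exact two-sided sign-flip permutation test gave p = 0.03125, the smallest that 6 libraries allow, and the same after adjustment over 4 such comparisons. The libraries share the same windows, and dKO came from the control line, so they are not independent. The p-values of this and the other such comparisons do not cover the spread among windows. In the mean of the 6 libraries, with the autosomal mean set to 1, the density of single gene-dense windows had a median of 1.30 (quartiles 1.14 and 1.39), against 0.998 (0.831 and 1.15) elsewhere, and 122 of 137 lay above the median of the other windows.

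**Figure D1:**
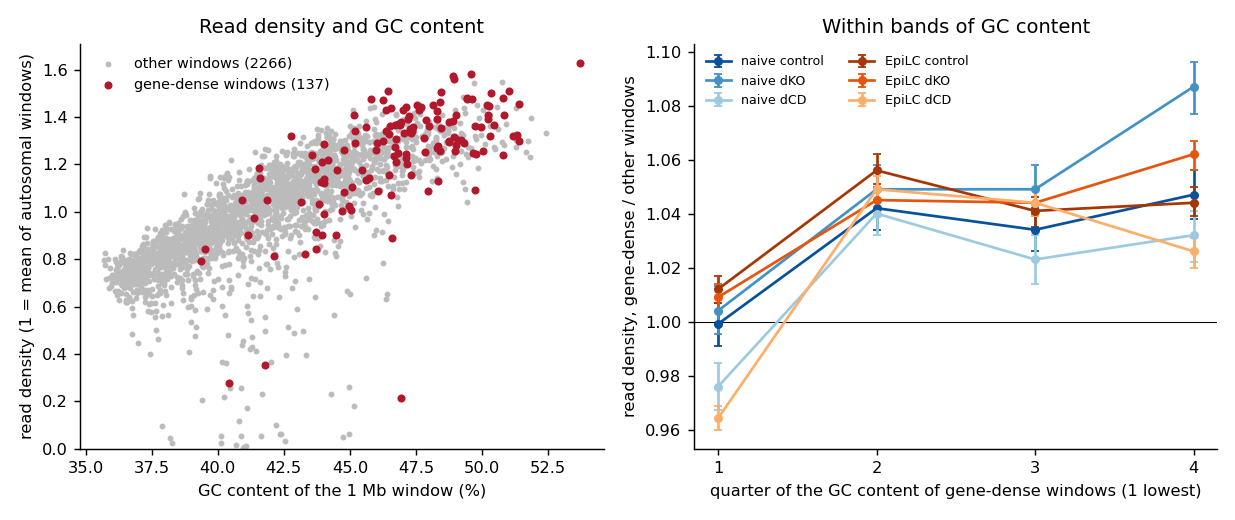
Left, read density of each 1 Mb window (mean of 6 libraries, 1 is the mean of the windows compared) against its GC content (%), with 137 gene-dense windows in red and 2266 other windows in grey. Right, read density of gene-dense over other windows within 4 bands of the GC content of gene-dense windows (1 is lowest), with 95% counting intervals. Density rises with GC content in both kinds of window, and the ratio within a band lies between 0.964 and 1.087.

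Density followed GC content in both kinds of window, and most of the excess was gone within bands of GC. The bands were set by the quartiles of GC content of gene-dense windows. For the naive control, the lowest band had a ratio of 0.999 (0.991 to 1.007), with 34 gene-dense and 1252 other windows. It was 1.042 (1.034 to 1.050), 1.034 (1.026 to 1.042) and 1.047 (1.038 to 1.056) in the next 3 bands. In the EpiLC control the 4 ratios were 1.012, 1.056, 1.041 and 1.044. The dCD libraries went below 1 in the lowest band, at 0.976 (0.967 to 0.985) in naive ESCs and 0.964 (0.960 to 0.969) in EpiLCs. Whether GC content acts through the biology of these regions or through the preparation of the libraries was not tested.

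The 3 windows of highest density were chromosome 10 from 80000001 to 81000000, chromosome 2 from 180000001 to 181000000 and chromosome 11 from 97000001 to 98000000, at 1.63, 1.58 and 1.57 in the mean of the 6 libraries. The first holds 53 TSSs, among them Polr2e (a subunit of RNA polymerases), Stk11 (a tumour suppressor kinase), Tcf3 and Dot1l (the H3K79 methyltransferase), and has the highest GC content of all gene-dense windows, 53.7%. Its density was 1.66, 1.82 and 1.86 in the naive control, dKO and dCD libraries and 1.42, 1.55 and 1.44 in the EpiLC libraries. It was thus lower in EpiLCs in each genotype. The window on chromosome 2 was at 1.36 to 1.46 in the control and dKO libraries but at 1.964 and 1.928 in the dCD libraries. At the low end were 3 windows of repeated genes. Chromosome 4 from 42000001 to 43000000, with Ccl21 and Fam205a copies, was at 0.197 to 0.231 in the 6 libraries. Chromosome 8 from 21000001 to 22000000, with 22 Defa genes among 39 TSSs, was at 0.256 to 0.307. Chromosome 14 from 41000001 to 42000000, with many Gm gene models, was at 0.338 to 0.378. Reads from near-identical copies may not be placed uniquely, and the part of this in the low densities was not tested. Just inside the threshold, 13 windows with 25 TSSs had a median density of 1.03 (0.215 to 1.37), and just outside it, 15 windows with 24 TSSs had 1.27 (1.03 to 1.44).

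The swing of fork direction within gene-dense windows was then measured. The amplitude is the SD of the Crick share over windows of 50 kb, in percentage points, with counting noise removed. In the naive libraries it was 12.8 in the control, 13.5 in dKO and 16.7 in dCD, and in the EpiLC libraries 9.91, 11.1 and 12.7. Other windows had 12.6, 13.2, 16.5, 9.70, 10.6 and 12.2 in the same order. The difference was small, from 0.17 in the naive control, where the interval held 0 (-0.01 to 0.35), to 0.48 (0.37 to 0.59) in EpiLC dCD. It was above 0 in 6 of 6 libraries (exact sign-flip permutation test, p = 0.03125, adjusted p = 0.03125). The difference was larger after the correction for T minus A content described below, at 0.63, 0.64, 0.73, 0.47, 0.83 and 0.79 in the same order, each with an interval above 0. The direction changed with the windows taken for comparison and with the scale. Against other windows of like GC content, those between percentiles 10 and 90 of the GC content of gene-dense windows, the difference was -0.69 to -0.19, below 0 in 6 of 6 libraries. The sign depended on the band of GC content. In the lowest band it was above 0 in 6 of 6 libraries, from 0.68 ± 0.21 (counting SE) in the naive control to 1.47 ± 0.13 in EpiLC dCD. In the highest band, with 35 gene-dense and 51 other windows, it was below 0 in 6 of 6, from -2.53 ± 0.13 in EpiLC dCD to -1.19 ± 0.21 in the naive control. Without the 11 single-family windows it was within counting error of 0 in all 3 naive libraries and in the EpiLC control.

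Gene-dense windows differed more from the rest over long distances. Over 10 kb windows their amplitude in the naive control was 14.7 and that of other windows 14.7. Over 200 kb it was 9.63 ± 0.095 (counting SE) against 10.5 ± 0.025, over 500 kb 6.40 ± 0.11 against 8.10 ± 0.027, and over 1000 kb 4.23 ± 0.13 against 5.96 ± 0.031. In the EpiLC control the values over 1000 kb were 3.62 ± 0.084 and 4.77 ± 0.019. The amplitude of gene-dense windows over 1000 kb was lower than that of other windows in all 6 libraries, and likewise after the part that follows base composition was taken off (3.02 against 4.09 in the naive and 2.87 against 3.74 in the EpiLC control). Over 100 kb the difference was -0.19, -0.17 and -0.26 in the naive libraries, with 0 inside the interval of dKO, and -0.02 in the EpiLC control, within counting error, while both EpiLC mutants lay above other windows. Fork direction also lost its likeness over a shorter distance. In the naive control the correlation of the Crick share between 50 kb windows 100 kb apart, with noise removed, was 0.22 over 2374 pairs in gene-dense windows and 0.48 over 39712 pairs elsewhere. At 200 kb it was -0.04 and 0.23. In the EpiLC control it was 0.36 and 0.55 at 100 kb and 0.07 and 0.26 at 200 kb. The pairs share their libraries and lie in the same 1 Mb windows, so these correlations are descriptions. Within single megabases the order was the reverse. The amplitude about the mean of each 1 Mb window was 12.5 ± 0.087 against 11.5 ± 0.024 in the naive and 9.55 ± 0.058 against 8.71 ± 0.015 in the EpiLC control. This was not particular to gene-dense windows. Windows with 15 to 24 TSSs lay above them in each library, at 12.95 in the naive and 9.71 in the EpiLC control. Windows without a TSS had 8.17 and 5.96.

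**Figure D2:**
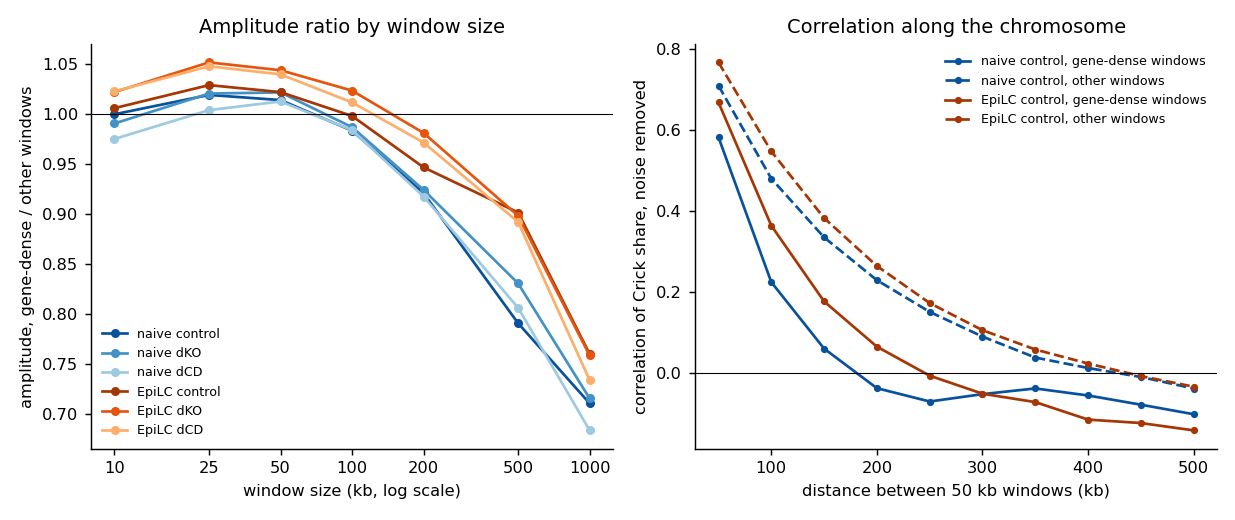
Left, amplitude of the Crick share in gene-dense windows divided by that in other windows, against window size (kb, log scale), for 6 libraries. Right, noise-removed correlation of the Crick share between 50 kb windows at the distance on the x axis (kb), in the naive and EpiLC control, for gene-dense (solid) and other windows (dashed). The ratio falls from 100 kb upward in each library, to 4.23 over 5.96 points at 1000 kb in the naive control, and at 250 kb the correlation is below 0 in gene-dense windows and 0.15 and 0.17 elsewhere.

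In the window with the most TSSs, fork direction can be followed on single tracks. Its amplitude about its own mean was 11.4 points in the naive and 8.18 in the EpiLC control, below the 12.5 and 9.55 of gene-dense windows together. Chromosome 7 from 45000001 to 46000000 holds 67 TSSs, among them Bax (which promotes apoptosis), Ruvbl2 (a chromatin remodelling ATPase), Gys1 (muscle glycogen synthase), Ftl1 (ferritin light chain), Fgf21 and the ribosomal protein genes Rpl13a and Rpl18. In the naive control its Crick share rose from 44.5% in the first 50 kb to 68.4% in the fifth, fell to 27.9% in the seventh, rose to 75.8% in the 13th and fell again to 43.4% in the 15th. The 6 libraries had shares of 62.7 to 68.4% in the fifth and 26.8 to 33.9% in the seventh 50 kb window. They did not overlap between these places, which were chosen by their shares in these tracks. The TSS of Slc6a21, which encodes a solute carrier, lies between this rise and this dip. Over all 50 kb windows of gene-dense megabases, the Crick share of the naive and EpiLC controls had a correlation of 0.82 over 2660 windows, or 0.91 with counting noise removed.

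**Figure D3:**
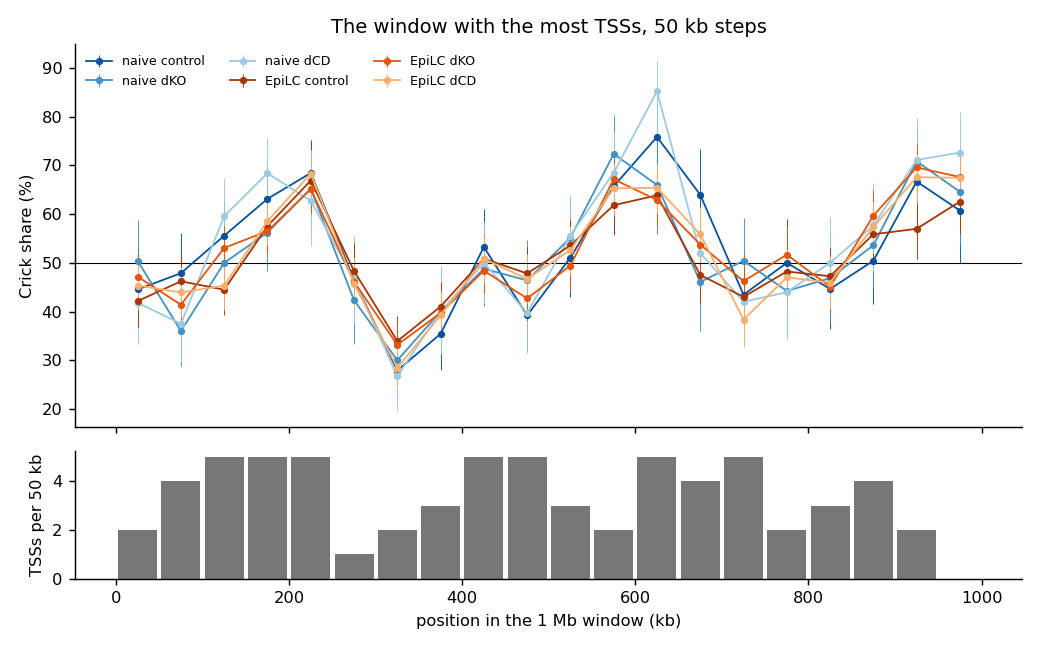
Crick share (%) in steps of 50 kb along the 1 Mb window with the most TSSs, in 6 libraries, with 95% Wilson intervals (top), and the number of TSSs in each step (bottom). In each library the share is higher in the fifth step (62.7 to 68.4%) than in the seventh (26.8 to 33.9%). Both steps were chosen by their shares.

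The other windows with the most TSSs had densities of 1.13 to 1.56 and amplitudes that differed more. Chromosome 11 from 69000001 to 70000000 holds 65 TSSs, among them Trp53 (the tumour suppressor p53), Polr2a (the largest subunit of RNA polymerase II) and the H3K27 demethylase gene Kdm6b, and had a mean density of 1.56 and a mean amplitude of 10.4 points over the 6 libraries. Chromosome 17 from 35000001 to 36000000, with 62 TSSs that include Tnf, H2 genes and the pluripotency factor gene Pou5f1, had 1.32 and 12.7. Chromosome 2 from 25000001 to 26000000, with 61 TSSs and 8 lipocalin (Lcn) genes, had 1.36 and 16.6. Chromosome 7 from 30000001 to 31000000 holds 60 TSSs, with Kmt2b, an H3K4 methyltransferase gene, among them, and had 1.29 and 8.77. Chromosome 11 from 99000001 to 100000000, with 58 TSSs and 23 keratin-associated (Krtap) genes, had 1.13 and 15.4. Amplitude thus ranged from 8.77 to 16.6 points among windows of 58 to 67 TSSs.

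Single windows ranged widely in amplitude about their own mean. The 3 with the highest mean over 6 libraries were the H2 window on chromosome 17 from 36000001 to 37000000 at 19.9, the keratin window on chromosome 15 from 101000001 to 102000000 at 19.4 and chromosome 7 from 140000001 to 141000000 at 18.7, which holds Cyp2e1, Sirt3 and 3 Ifitm genes. In the H2 window, which encodes antigen-presenting molecules, the amplitude was 20.6, 22.0 and 25.3 in the naive and 15.8, 16.3 and 19.2 in the EpiLC libraries. At the other end were chromosome 6 from 129000001 to 130000000 at 5.74 (the natural killer receptor genes Klr and Clec), chromosome 9 from 21000001 to 22000000 at 6.25 (Icam1, Keap1, Smarca4) and the GC-rich window on chromosome 10 from 80000001 at 6.31. In the Klr and Clec window the Crick share of the whole megabase was 60.5%, 60.5% and 66.0% in the naive and 58.0%, 58.1% and 59.2% in the EpiLC libraries, above 50% in each. Of 134 gene-dense windows with a value, 98 lay above the median of the other windows, 10.4.

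Fork direction changed less at TSSs in gene-dense windows than at TSSs elsewhere. The strand bias of a TSS is the Crick share in the 25 kb to its right less the Crick share in the 25 kb on its left, and is positive where forks start. Over 4804 TSSs of gene-dense windows that had 10 or more reads per side in every library, its mean in naive ESCs was 4.24 ± 0.13 points (counting SE) in the control, 4.07 ± 0.14 in dKO and 4.42 ± 0.14 in dCD. In EpiLCs it was 2.77 ± 0.081, 3.15 ± 0.075 and 3.42 ± 0.075. At 13671 TSSs of other windows it was 7.89, 7.76 and 8.55 in naive ESCs and 5.36, 5.67 and 6.12 in EpiLCs. The difference was -3.66 (-3.96 to -3.35), -3.69 (-4.01 to -3.36) and -4.13 (-4.46 to -3.79) in the naive libraries and -2.59 (-2.78 to -2.39), -2.52 (-2.70 to -2.35) and -2.70 (-2.88 to -2.52) in the EpiLC libraries. It was below 0 in 6 of 6 libraries (exact sign-flip permutation test, p = 0.03125, adjusted p = 0.03125). Neighbouring TSSs share reads, which the counting errors take into account.

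In each library the Crick share of a 1 kb bin also rose with its T minus A content, with slopes of 1.63 to 1.74 for naive libraries and 1.15 to 1.34 for EpiLC libraries. With this part taken off, strand bias in gene-dense windows was 2.08 in the naive and 1.38 in the EpiLC control, against 3.55 and 2.51 elsewhere. The differences were -1.47 (-1.78 to -1.17) and -1.13 (-1.32 to -0.94), and those of the other 4 libraries lay between -1.76 and -0.87, each with an interval below 0. The ratio of gene-dense to other TSSs went from 0.537 to 0.586 in the naive and from 0.517 to 0.551 in the EpiLC control. Whether the correction removes fork signal along with base composition was not tested, here or in the other corrected values.

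**Figure D4:**
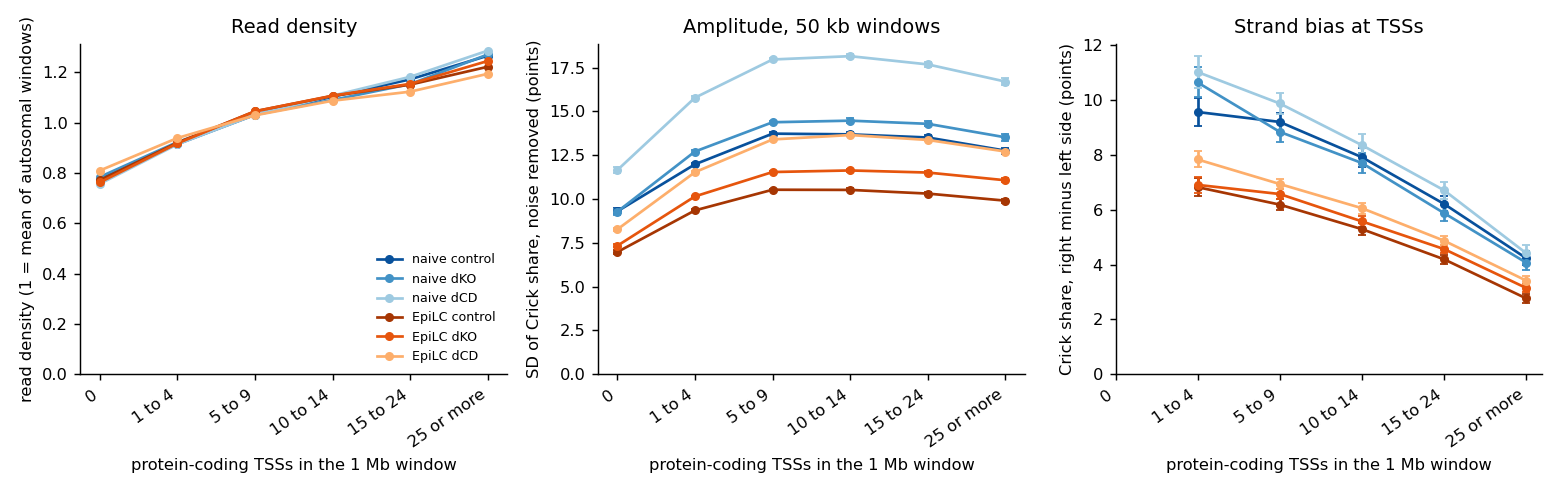
Read density (left), amplitude over 50 kb windows in percentage points (middle) and mean strand bias at TSSs in percentage points (right) for 1 Mb windows grouped by their number of protein-coding TSSs, in 6 libraries, with 95% counting intervals in the middle and right panels. Density rises over all classes, amplitude is highest between 5 and 14 TSSs, and strand bias falls from 9.56 points at 1 to 4 TSSs to 4.24 at 25 or more in the naive control.

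The 3 measures changed differently with the number of TSSs in a window. From windows without a TSS to gene-dense windows, density in the naive control rose over the 6 classes, from 0.778 to 1.27. Amplitude rose from 9.30 without TSSs to 13.7 with 5 to 9 TSSs and was 12.8 in gene-dense windows. Strand bias fell from 9.56 ± 0.26 points at 1 to 4 TSSs through 9.20, 7.92 and 6.22 to 4.24 in the naive control, and from 6.82 ± 0.16 through 6.19, 5.29 and 4.20 to 2.77 in the EpiLC control. The classes kept this order after correction for T minus A content, from 4.20 to 2.08 and from 3.28 to 1.38.

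Crowding of TSSs was compared next. In gene-dense windows a TSS had a median of 2 other TSSs within 25 kb, against 0 elsewhere, and 16.8% had none, against 57.7%. Among TSSs with no other TSS within 25 kb, strand bias in the naive control was 3.24 ± 0.32 at 787 TSSs of gene-dense windows and 7.17 ± 0.11 at 7877 elsewhere, a difference of -3.94 (-4.61 to -3.26). With 1 neighbour the difference was -4.73 (-5.40 to -4.07) and with 2 to 3 it was -4.03 (-4.76 to -3.31). With 4 or more neighbours it was -0.71 (-2.65 to 1.23), over 1069 and 211 TSSs. In the EpiLC control the same 4 differences were -2.83, -3.19, -2.79 and -1.05, the last with an interval that held 0 (-2.31 to 0.21). With 4 or more neighbours the other libraries had -3.02 (-5.09 to -0.96) in naive dKO, -2.41 (-4.54 to -0.29) in naive dCD, -0.17 (-1.34 to 1.001) in EpiLC dKO and -2.06 (-3.32 to -0.80) in EpiLC dCD, so the interval lay below 0 in 3 of 6 libraries. After the correction for T minus A content it did so in 2 of 6, since naive dCD was at -1.62 (-3.74 to 0.50), and EpiLC dKO was at 0.18 (-0.99 to 1.35). With no neighbour the corrected difference was -2.04 (-2.72 to -1.37) in the naive control, and the interval lay below 0 in all 6 libraries. Lower strand bias in gene-dense windows was therefore also seen at TSSs that stood alone.

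The number of CpGs within 500 bases of a TSS also went with strand bias. In the lowest CpG quartile of all autosomal TSSs, strand bias in the naive control was 0.85 ± 0.29 in gene-dense windows and 2.79 ± 0.20 elsewhere, and in the highest 6.36 ± 0.31 and 11.5 ± 0.16. The difference was -1.94 (-2.63 to -1.25) in the lowest and -5.15 (-5.84 to -4.46) in the highest quartile. It was below 0, with an interval below 0, in each quartile of each of the 6 libraries. After the correction for T minus A content it was still below 0 in each, but the interval held 0 in 6 of these 24 cases, all in the lower 2 quartiles, such as -0.53 (-1.12 to 0.06) in the second quartile of the naive control and -0.34 (-0.76 to 0.09) in the lowest of the EpiLC control. Only 19.7% of TSSs in gene-dense windows were in the highest quartile, against 27.7% elsewhere.

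**Figure D5:**
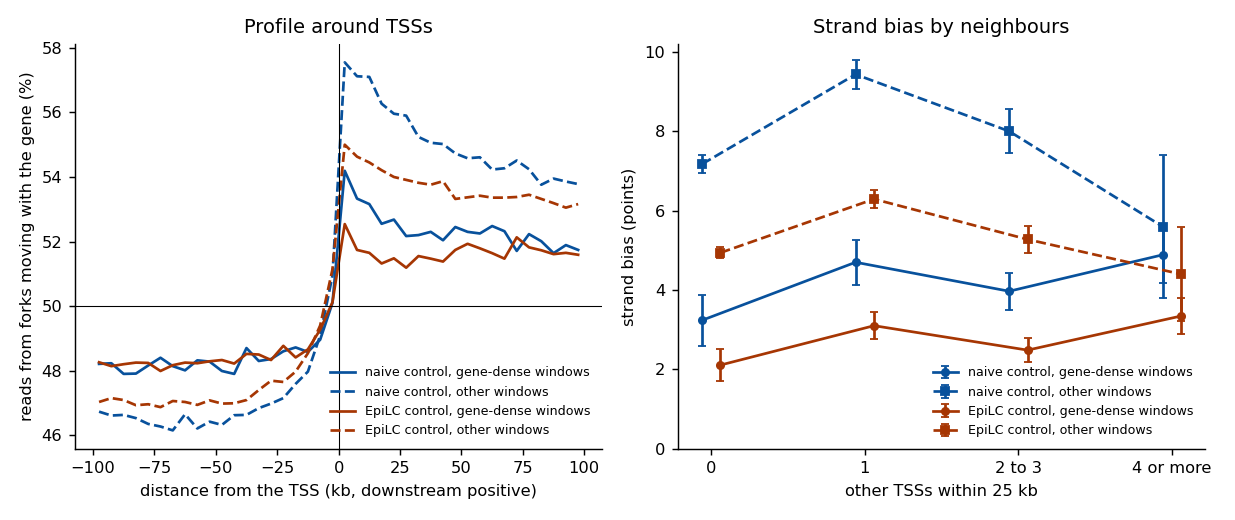
Left, share of reads (%) from forks that move in the direction of the gene, in steps of 5 kb around TSSs (x axis, kb, downstream positive), in the naive and EpiLC control for gene-dense (solid) and other windows (dashed). Right, mean strand bias (percentage points, 95% counting intervals) by the number of other TSSs within 25 kb. The step at the TSS is smaller in gene-dense windows in both states, and the 2 kinds of window overlap only at 4 or more neighbours.

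Single TSSs of gene-dense windows spread from -28.9 to 37.9 points in the mean of the 6 libraries, with a median of 3.58 over 4670 TSSs with at least 20 reads on each side, against 6.57 over 13029 elsewhere. The highest were Med1 at 37.9, the pair Dhx30 and Smarcc1 at 37.2, Nol6 at 37.0, Ube2r2 at 36.0 and Smarca4 at 34.5. Med1 had 38.6, 43.1 and 51.1 points in the naive control, dKO and dCD libraries and 26.8, 34.5 and 33.3 in the EpiLC libraries. Its interval in the naive control was 20.9 to 53.0. Dhx30 and Smarcc1, a subunit of the BAF remodelling complex, start in opposite directions within the same 1 kb and share their reads, so they count as 1 place. The TSSs of Nol6 and Ube2r2 are neighbours within 25 kb and share part of their reads. Smarca4, the ATPase of the same complex, had 28.2, 38.1 and 51.1 points in the naive and 31.6, 29.4 and 28.8 in the EpiLC libraries, although it lies in 1 of the 3 windows of lowest amplitude. The lowest were Slc6a21 at -28.9, Myg1 at -26.7, its neighbour Pfdn5 at -26.2, Sox15 at -25.0, Sbk3 at -23.6 and Svs3a at -23.0. Myg1 had -26.2, -50.4 and -32.9 points in the naive and -12.8, -20.7 and -17.1 in the EpiLC libraries, and the interval lay below 0 in each library. Strand bias was above 0 in all 6 libraries at 26.7% of TSSs in gene-dense windows and 35.8% elsewhere, and below 0 in all 6 at 6.96% and 3.35%. The named TSSs lay closer to 0 after the correction for T minus A content, with Nol6 at 23.4, Ube2r2 at 23.3, Med1 at 23.2, Dhx30 and Smarcc1 at 22.5 and Smarca4 at 19.8, and at the low end Sbk3 at -18.2, Slc6a21 at -16.8, Myg1 at -15.8, Pfdn5 at -14.4, Sox15 at -14.3 and Svs3a at -11.0. These TSSs were chosen by their values and were not tested.

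Neighbouring genes were compared by their orientation. In gene-dense windows, 862 gaps between genes that diverge had a median length of 8.07 kb, 2171 gaps between genes in tandem 6.57 kb and 752 gaps between genes that converge 2.19 kb. In other windows of the naive control, strand bias about the middle of the gap was 7.55, 3.35 and -1.19 points in the same order. In gene-dense windows it was 6.35 ± 0.30, 2.27 ± 0.18 and -0.84 ± 0.32 points. Divergent minus convergent gaps gave 7.20 (6.32 to 8.08), 5.19 (4.26 to 6.11) and 6.67 (5.71 to 7.62) points in the naive libraries and 4.24 (3.69 to 4.79), 4.99 (4.48 to 5.50) and 4.74 (4.22 to 5.25) in the EpiLC libraries. Most of this difference was gone after the correction for T minus A content, which may have removed fork signal as well. This was not tested. The corrected difference was between -0.53 and 1.15, and the interval held 0 in 5 of 6 libraries, the naive control being the exception. Convergent gaps of gene-dense windows then lay above 0 in each library, at 1.71 ± 0.32 in the naive control and 3.13 ± 0.34 in naive dKO. In other windows, corrected divergent gaps lay above convergent ones in each library, at 3.70 ± 0.19 and 1.86 ± 0.19 in the naive control.

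Within gene bodies, 54.7% ± 0.14 of reads in the naive control came from forks that moved with the gene, over 2586 genes of gene-dense windows with at least 20 reads in each library, against 55.7% ± 0.057 over 10266 genes elsewhere. The EpiLC control had 52.7% and 53.7%. The difference was -1.26 to -0.98 points in the 6 libraries, below 0 in all (exact sign-flip permutation test, p = 0.03125, adjusted p = 0.03125). The difference was not the same in all classes of gene length. Genes under 20 kb made up 1367 of the 2586 genes in gene-dense windows and 2107 of the 10266 elsewhere. Their shares in the naive control were 53.8% and 53.9%, below the 55.4% and 56.0% of genes of 20 to 50 kb. The part of gene length in the difference over all genes was not tested. For genes under 20 kb the difference was -0.07 (-0.64 to 0.51) points in the naive control and -0.09 (-0.46 to 0.29) in the EpiLC control, and the interval held 0 in all 6 libraries. For genes of 20 to 50 kb it was -1.02 to -0.53 points, with an interval below 0 in each library. Corrected for T minus A content, the interval of the naive control in this class held 0, at -0.34 (-0.78 to 0.10), and for genes under 20 kb the difference was above 0 in 5 of 6 libraries, in EpiLC dCD with an interval above 0, at 0.36 (0.02 to 0.71). For genes of 50 kb or more it was 0.19 (-0.35 to 0.74), 0.35 (-0.24 to 0.94) and 0.53 (-0.07 to 1.13) in the naive libraries but -0.83 to -0.61 in the EpiLC libraries, each with an interval below 0. When reads were summed over genes it was within counting error of 0 in the 3 naive libraries. After correction for T minus A content, gene-dense windows had a share of 50.9% in the naive and 50.1% in the EpiLC control, against 51.3% and 50.7% elsewhere, and the difference was -0.34 (-0.64 to -0.04) and -0.58 (-0.78 to -0.38).

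From naive ESCs to EpiLCs, amplitude and strand bias in gene-dense windows were lower in each genotype. Amplitude differed by -2.85 (-3.07 to -2.64) points in the control, -2.44 (-2.66 to -2.23) in dKO and -3.99 (-4.20 to -3.78) in dCD, and by -2.89, -2.63 and -4.27 in other windows. After the correction for T minus A content the fall in gene-dense windows was smaller in each genotype, at -1.43 (-1.66 to -1.21), -1.46 (-1.69 to -1.22) and -2.79 (-3.02 to -2.57), against -1.27, -1.64 and -2.86 in other windows. The fall was smaller in gene-dense than in other windows beyond counting error in dCD alone, by 0.28 (0.06 to 0.50), and this was 0.07 (-0.17 to 0.30) without the T minus A part. Strand bias at TSSs differed by -1.47 (-1.77 to -1.17), -0.92 (-1.23 to -0.62) and -1.002 (-1.32 to -0.69) points, against -2.54, -2.09 and -2.43 elsewhere. The corrected values were -0.69, -0.44 and -0.49 in gene-dense windows, each with an interval below 0, and -1.04, -1.13 and -1.20 elsewhere. In points the fall at gene-dense TSSs was smaller by 1.07 (0.71 to 1.43), 1.16 (0.79 to 1.53) and 1.43 (1.05 to 1.81). After the correction for T minus A content this was 0.34 (-0.02 to 0.70) in the control, within counting error, and 0.69 (0.33 to 1.06) and 0.71 (0.33 to 1.09) in the mutants. As a ratio, EpiLC over naive strand bias was 0.654, 0.773 and 0.773 in gene-dense windows and 0.679, 0.731 and 0.716 elsewhere. Read density relative to the autosomes was 0.965 (0.961 to 0.969), 0.980 (0.976 to 0.984) and 0.928 (0.924 to 0.932) times that in naive ESCs. With 3 genotypes the exact sign-flip permutation test gave p = 0.25 for each of these 3 measures, the smallest it allows, so the state could not pass a threshold of 0.05.

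The largest shift of density toward EpiLCs in the control was in 3 windows chosen for it. The interferon window on chromosome 4 from 88000001 to 89000000, with 13 Ifna genes, was at 1.20, a histone window on chromosome 13 from 21000001 to 22000000 at 1.09 and chromosome 4 from 116000001 to 117000000 at 1.09. The interferon window was at 1.001 in dKO and 1.05 in dCD. The histone window was at 1.05 and 1.06 and the third at 1.05 and 1.08. The smallest ratios were 0.845 on chromosome 10 from 81000001 to 82000000, 0.855 in the window just before it and 0.860 on chromosome 11 from 97000001 to 98000000, and these 3 windows were below 0.9 in each genotype.

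Mutant and control libraries were compared last, to ask whether loss of KMT2C/D or of its activity moved fork direction in gene-dense windows. Amplitude was higher in the mutants. In naive ESCs dKO minus control was 0.76 (0.50 to 1.01) points and dCD minus control 3.94 (3.69 to 4.19), and in EpiLCs 1.17 (1.004 to 1.33) and 2.80 (2.64 to 2.97). Other windows had 0.65, 3.91, 0.91 and 2.53. The difference in gene-dense windows was larger than elsewhere beyond counting error in EpiLCs, by 0.26 (0.09 to 0.43) in dKO and 0.27 (0.10 to 0.44) in dCD. In naive ESCs these excesses were 0.11 (-0.16 to 0.37) and 0.03 (-0.23 to 0.30). Strand bias at TSSs of gene-dense windows differed from the control by -0.16 (-0.53 to 0.20) points in naive dKO and 0.18 (-0.19 to 0.56) in naive dCD, both within counting error. At other TSSs naive dCD differed by 0.65 (0.40 to 0.91), and the difference between both kinds of TSS was -0.47 (-0.93 to -0.02), or -0.28 (-0.74 to 0.17) after the correction for T minus A content. In EpiLCs strand bias in gene-dense windows was higher than in the control by 0.38 (0.16 to 0.60) in dKO and 0.65 (0.43 to 0.86) in dCD. Other TSSs were higher by 0.32 (0.17 to 0.46) and 0.76 (0.62 to 0.91), and both kinds of TSS differed within counting error, by 0.06 (-0.20 to 0.32) and -0.11 (-0.37 to 0.15). After the correction for T minus A content dKO minus control at other TSSs was -0.09 (-0.23 to 0.06), within counting error, and both kinds of TSS differed by 0.26 (-0.001 to 0.52). For EpiLC dCD the corrected values were 0.39 (0.17 to 0.60) in gene-dense windows and 0.30 (0.16 to 0.45) elsewhere. The value for EpiLC dKO was 0.17 (-0.04 to 0.39) without the T minus A part. With libraries thinned to the same size both EpiLC intervals held 0. With 50 kb on each side of a TSS, the naive dCD difference in gene-dense windows was larger. With 10 kb on each side the EpiLC dCD difference was smaller. Both values are given in the closing section.

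At the level of 50 kb windows, a Crick share was called changed where it differed by at least 10 points with a Newcombe interval without 0. Between states this held for 16.4% of 2660 windows in gene-dense megabases in the control, 11.9% in dKO and 20.5% in dCD, beside 15.4%, 11.6% and 19.1% of all autosomal 50 kb windows tested. Between mutant and control it held for 9.6% and 15.3% in naive dKO and dCD, beside 8.5% and 14.3%, and for 3.91% and 7.27% in EpiLCs, beside 5.8% and 9.04%. These shares lay near the background, slightly above it in the 5 comparisons with a naive library and below it in both without one. Depth also differed, with a median of 98 to 119 reads per 50 kb in gene-dense and 72 to 87 in other windows of the naive libraries, and its part in these shares was not tested. With libraries thinned to the same size the share for EpiLC dKO was 6.37%, beside 6.56% of all windows thinned in the same way. At 20 points or more the shares between states were 1.28%, 0.790% and 2.61%, beside 1.83%, 1.1% and 3.34% of all windows, and those of the naive mutants 1.21% and 3.02%, beside 2.28% and 4.65%, so at that size these 5 lay below the background. Those of the EpiLC mutants were 0.149% and 0.0373%, beside 0.112% and 0.197%.

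Whole gene-dense windows were called in dCD comparisons only, where a call meant a density at least 25% higher or at least 20% lower. Between states in dCD, 2 of 137 windows (1.46%) were lower and 0 higher, beside 0.541% and 0.333% of all windows. The 2 were neighbours on chromosome 10 from 80000001 to 82000000, at 0.774 and 0.767. In naive dCD against control, 2 were higher and 2 lower, beside 0.874% and 2.16%, and in EpiLCs 3 were higher (2.19%) and 2 lower, beside 0.832% and 1.58%. The higher windows all lay on chromosome 2 beyond 164000001, at 1.32 to 1.39, and were among 11 gene-dense windows on that chromosome, which together were at 1.10 in naive ESCs and 1.07 in EpiLCs. Lower in both states was chromosome 13 from 67000001 to 68000000, where 23 of 32 TSSs are Zfp genes, at 0.726 in naive ESCs and 0.743 in EpiLCs. The other lower window lay on chromosome 14 but was not the same in both states. It ran from 54000001 to 55000000 in naive ESCs, at 0.778, and from 51000001 to 52000000 in EpiLCs, at 0.707. In the control and dKO comparisons, 0 of 137 windows were called in either direction. The background there was 0.291% higher and 0.166% lower between states in the control, 0.0832% and 0.0416% in dKO, 0.0832% and 0.166% for naive dKO over control, and 0% and 0.208% for the EpiLC pair. Since dCD came from another line, its genotype, background and chromosome content cannot be told apart.

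Windows of 1 gene family were set beside the 126 mixed gene-dense windows. Their median GC content was 41.6% against 47.2%, and their mean density 0.979 against 1.29 in the naive and 0.993 against 1.24 in the EpiLC control. Amplitude was 13.7 ± 0.35 against 12.7 ± 0.093 points in the naive and 12.2 ± 0.25 against 9.67 ± 0.063 in the EpiLC control. Strand bias at their 364 TSSs was 1.37 ± 0.52 and 0.92 ± 0.32 points in the 2 controls, against 4.47 ± 0.13 and 2.92 ± 0.084 at 4440 TSSs of mixed windows. Without the T minus A part it was -0.24 and -0.16. The mixed windows by themselves still had lower strand bias than other windows, by -3.42 (-3.73 to -3.11) in the naive and -2.43 (-2.63 to -2.24) in the EpiLC control. Expression of the genes in single-family windows was not measured in these data, and its part in their strand bias was not tested.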

How the data were processed

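OK-seq was done in 12 samples, 2 replicates of 6 conditions. Okazaki fragments labelled with EdU were isolated on sucrose gradients and captured by click chemistry. According to the methods and the submitters' processing notes, the authors used FastQC, Trim Galore, Bowtie2 and Picard, aligned to mm10 (hg19 is also listed) and binned Watson and Crick reads in 1 kb. The authors deposited a signal in reads per base, with both replicates summed. Each value was a whole multiple of 0.001 and was multiplied by 1000 to give reads. Duplicate removal is not given in the sources used here.

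The members, lists and tests were chosen with earlier results of these data known. Windows named are the 6 with the most TSSs and the 3 at each end of amplitude, density and EpiLC over naive density in the control. TSSs named are the 6 at each end of mean strand bias. High bins, above 10 times the median count, numbered 126 and were not used (9 in gene-dense windows). 50 kb windows needed at least 20 reads. Ratios of density have exact conditional Poisson intervals, and differences of Crick share have Newcombe intervals. For the T minus A part, the Crick share of a 1 kb bin, less that of its neighbours 3 to 10 bins away, was regressed on the same difference in T minus A content. The fitted part was moved from Crick to Watson reads. Regression on the bin's own content was tried first and was replaced by this form after the data were seen. Python 3.11.15, NumPy 2.4.6, pandas 2.3.3, SciPy 1.17.1 and matplotlib 3.10.9 were used. The measures were tested on simulated data, where 22 of 24 intervals held the planted value. Alternatives concerned windows, thresholds, filters, base composition, GC content and depth, and 2 combinations were chosen after seeing the data.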

Additional observations from a re-analysis of the deposited data

Results flagged for a closer look

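Read density of gene-dense windows in dCD over control was 1.016 (1.011 to 1.021) in naive ESCs and 0.9772 (0.9742 to 0.9802) in EpiLCs. It stands out because the library lay above the control in one state and below it in the other, and this difference between states was not tested. Against windows of like GC content the naive ratio was 1 (0.995 to 1.005). The 11 gene-dense windows on chromosome 2 were at 1.10 and 1.07 in the 2 states, and the 16 on chromosome 7 at 1.04 and 0.996.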

How the results depend on the processing

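No paired analysis was possible because the replicates are summed in the deposited tracks, and for the same reason no replicate could be left out. Of 784 values under alternatives, 719 kept their direction and their side of the threshold. The higher density and the lower strand bias of gene-dense windows kept theirs in all 6 libraries under each of these alternatives, among them the one with other windows of like GC content. Within the lowest band of GC content alone the density ratio was 0.999 in the naive control and below 1 in both dCD libraries. The small amplitude difference did not. Values below are in the order naive control, dKO, dCD, then EpiLC. Against windows of like GC content the amplitude difference was -0.501, -0.407, -0.692, -0.300, -0.188 and -0.538. Without the T minus A part as well, a combination chosen after seeing the data, it was -0.353, -0.360, -0.565, -0.136, 0.0135 and -0.274. With windows of 100 kb it was -0.193, -0.171, -0.261 and, in the EpiLC control, -0.0216. Without single-family windows it was 0.0542 and -0.00189 in both naive mutants and -0.0236 in the EpiLC control. In the naive mutants it was 0.164 and 0.0278 with at least 30 TSSs, and 0.210 and 0.110 without 5 chromosomes. In naive dCD it was 0.0656 with 25 kb windows and -0.00803 with at least 40 reads. In the naive control it passed the threshold at 0.631 without the T minus A part, 0.279 with at least 20 TSSs, 0.256 with 25 kb windows, 0.208 with windows shifted, 1.01 with the SD about each 1 Mb window and 1.21 with both this and the T minus A part off (chosen after seeing the data). Divergent minus convergent gaps with the T minus A part off gave -0.526 and 0.542 in the naive mutants and 0.307, 0.463 and 0.149 in EpiLCs. Strand bias of EpiLC dKO minus control was 0.172 with the T minus A part off, with or without like GC content, 0.183 with thinned libraries and 0.244 without 5 chromosomes. That of EpiLC dCD was 0.386 with thinned libraries and 0.332 with 10 kb sides, and that of naive dCD 0.798 with 50 kb sides. Density of naive dKO over control was 1.009 with at least 30 TSSs, 1.014 with like GC content and 1.006 without 5 chromosomes, and that of naive dCD 1 with like GC content. The co-directional difference with reads summed over genes was -0.0169, -0.0629 and -0.149 in naive libraries. At 20 points, 1.28%, 0.790% and 2.61% of 50 kb windows changed between states, 1.21% and 3.02% in the naive mutants and 0.149% and 0.0373% in the EpiLC mutants, beside 1.83%, 1.1%, 3.34%, 2.28%, 4.65%, 0.112% and 0.197% of all such windows, and with thinned libraries 6.37% in EpiLC dKO at 10 points, beside 6.56%. The density calls in dCD fell to 0% at 1.5-fold, beside 0.0416% to 0.583% of all windows, and the higher ones to 0% without 5 chromosomes, beside 0.0596% in naive ESCs and 0% in EpiLCs. The cause of these shifts was not tested. Single naive TSSs rest on few reads, and the interval of Med1 in the naive control ran from 20.9 to 53.0 points.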
